A study of Mus musculus with 8 samples.

Results

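The neutral lipases that break down stored triglyceride, together with the proteins that switch them on or off, were followed in brown adipose tissue (BAT) from which 1 of these lipases had been deleted. The 10 genes were chosen by name, as the enzymes and cofactors of triglyceride breakdown around the deleted gene. No rule on their values was used, but earlier results of these data were known when they were chosen. They were the lipases Pnpla2, Lipe, Mgll, Pnpla3, Pnpla8, Ces1d and Ces1f, the activator Abhd5, and the inhibitors G0s2 and Hilpda. All 10 had enough counts to be tested, among 8930 genes tested and 31053 listed.

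Triglyceride in a lipid droplet is cut in steps. Adipose triglyceride lipase (ATGL, the product of Pnpla2) removes the first fatty acid, hormone-sensitive lipase (HSL, the product of Lipe) cuts the resulting diglyceride, and monoglyceride lipase (the product of Mgll) frees the last fatty acid from glycerol. ATGL needs the activator ABHD5 (also called CGI-58) for full activity and is held back by the small proteins G0S2 and HILPDA. In brown fat the released fatty acids are fuel for heat production and ligands of nuclear receptors.

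The study compared BAT of 4 WT mice with BAT of 4 Ucp1Δ/Δ mice, which carry loxP-flanked Pnpla2 alleles (Pnpla2 fl/fl) and a Cre recombinase driven by the Ucp1 promoter. Cre from this promoter acts in UCP1-positive thermogenic adipocytes, so that the other cells of the tissue are meant to keep the gene. All animals were on the C57BL6/J background and were male per the study's methods. The labels give an age of 10 weeks for every mouse, where the study's legend names a younger age, and list the material both as BAT and as stromal vascular fraction, the non-adipocyte cells left after digestion. Whether the WT mice carried floxed alleles or Cre, and which Pnpla2 exons lie between the loxP sites, is not given in the sources used here.

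The libraries held between 2017697 and 3115956 counts, so that 3 counts corresponded to between 0.933 and 1.53 CPM, the usual unit of counts scaled by library size. Such a floor covers counting error only, and mitochondrially encoded genes took between 38.4% and 45.6% of the counts. Marker genes of adipocytes were abundant in every library, against the stromal vascular label: summed brown adipocyte markers lay between 5957 and 14558 CPM in WT mice and between 4493 and 7647 CPM in Ucp1Δ/Δ mice. Cidea alone made up 51.6% of the brown adipocyte marker sum over all mice. Of the 8 brown adipocyte markers, 2 were called lower (Cidea and Elovl3) and 1 higher (Dio2), and Ucp1 was not called. Cidea was at 3723 to 7455 CPM in WT and 1841 to 3208 CPM in Ucp1Δ/Δ mice. Elovl3 was at 13.2 to 64.1 CPM and 3.34 to 15.6 CPM. Dio2 was at 3.55 to 20.6 CPM in WT and 21.5 to 67.3 CPM in Ucp1Δ/Δ mice, and Ucp1 at 1291 to 4110 CPM and 1421 to 2821 CPM. Summed pan-adipocyte markers lay between 10041 and 11851 CPM in WT mice and between 6735 and 9880 CPM in Ucp1Δ/Δ mice, with no overlap. Of these 8 markers, 3 were called lower (Adipoq, Plin1 and Cidec) and 1 higher. The higher one was Lep, at most 6.59 CPM in WT and at least 39.3 CPM in Ucp1Δ/Δ mice. Macrophage markers lay between 101 and 156 CPM in WT mice and between 977 and 1629 CPM in Ucp1Δ/Δ mice, with 9 of 9 tested markers higher, and fibroblast markers between 302 and 403 CPM and between 880 and 1588 CPM, with 5 of 6 tested markers higher. Endothelial markers lay between 153 and 188 CPM and between 203 and 221 CPM, with 1 of 6 higher. Lymphocyte and neutrophil markers summed to at most 10.3 CPM in any mouse, and Cd79a and Ly6g were at 0 in all of them. Skeletal muscle markers ranged from 15.0 to 1177 CPM in WT mice and from 46.8 to 1552 CPM in Ucp1Δ/Δ mice, and were high in WT mice 1 and 4 and Ucp1Δ/Δ mice 2 and 4. In bulk tissue, fewer cells of a type and less RNA per cell cannot be told apart, and the part of these cell-type shifts in the results was not tested.

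Sequence before the transcription start is shown for Pnpla2, Pnpla3 and Hilpda, the lower genes of the set for which a promoter window was at hand. The windows are RefSeq's on build GRCm38.p6, and 8 of the 10 genes had one, some with more than 1 start, giving 11 windows. Ces1d and Ces1f had none. The 250 bases before a start are printed 5′ to 3′ on the gene's own strand, which is the plus strand for all 3. Capitals mark the letters of any motif searched.
Pnpla2 upstream, chr7:141454938-141455187: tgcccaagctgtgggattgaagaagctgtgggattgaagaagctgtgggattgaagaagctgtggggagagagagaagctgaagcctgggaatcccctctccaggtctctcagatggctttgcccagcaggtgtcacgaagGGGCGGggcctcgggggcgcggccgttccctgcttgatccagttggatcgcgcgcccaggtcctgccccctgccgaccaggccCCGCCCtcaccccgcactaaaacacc
Pnpla3 upstream, chr15:84167566-84167815: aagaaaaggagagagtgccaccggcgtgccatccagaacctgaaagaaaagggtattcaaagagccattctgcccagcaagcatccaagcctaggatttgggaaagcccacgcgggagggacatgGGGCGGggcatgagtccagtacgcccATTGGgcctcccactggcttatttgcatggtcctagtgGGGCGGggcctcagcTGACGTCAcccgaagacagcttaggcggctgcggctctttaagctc
Hilpda upstream of its first start, chr6:29272238-29272487: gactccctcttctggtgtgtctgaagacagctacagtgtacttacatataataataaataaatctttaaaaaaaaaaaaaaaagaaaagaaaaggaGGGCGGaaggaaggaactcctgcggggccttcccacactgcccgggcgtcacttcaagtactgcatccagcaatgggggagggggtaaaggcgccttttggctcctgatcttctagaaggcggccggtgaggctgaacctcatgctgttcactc

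The motifs were searched on both strands in windows of 300 bases, from 250 before to 50 after a start, with the start base as position 0. The GC box GGGCGG, a common promoter element bound by Sp1-type factors, occurred in 10 of the 11 windows and in 35.7% of all 32851 RefSeq windows of this length. The 11 windows held 50.7% to 72.3% G and C, beside a median of 52.7% over all windows. The 35.7% is not matched for that content. Pnpla2 held it at positions -109 and -26. The Pnpla3 window held the palindrome TGACGTCA, the cAMP response element of the kinase pathway that stimulates lipolysis, from position -46, a sequence found in 1.79% of all windows. It also held GGGCGG at -125, -61 and 37, and CCAAT read on the opposite strand at -99, which 37.4% of all windows hold. At the second start of Hilpda, whose gene is named for its induction by hypoxia, ACGTG, the core read by hypoxia-inducible factors, lay at position -43, and 19.6% of all windows hold it. That core is part of the longer CACGTG, found in 7.15% of all windows and in 1 window each of Lipe and Mgll. AGGTCA occurred only in the Abhd5 window (16.3% of all windows), and GTAAACA in 1 window each of Lipe and Mgll (3.65%). A pair of AGGTCA copies in the same direction with 1 base between them (0.0396% of all windows) and TATAAA (13.6%) were in none of the 11. These matches are descriptions of letters and not of bound sites.

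Pnpla2 checks the genotype labels. The gene (ENSMUSG00000025509) lies at chr7:141455198-141460743 on the plus strand of GRCm38, the mm10 build, and no other annotated exon overlaps its exons. Its level was 2837, 2702, 2961 and 3152 CPM in WT mice 1 to 4, and 514, 448, 403 and 531 CPM in Ucp1Δ/Δ mice 1 to 4. The groups were far apart, and all 4 Ucp1Δ/Δ mice kept a measurable level, on average 16.3% of that in WT mice. Its log2 fold change (log2FC, Ucp1Δ/Δ over WT) was -2.62 with a 95% confidence interval (CI) from -2.98 to -2.26 (adjusted p = 1.97e-07, edgeR's quasi-likelihood test), the fourth smallest p of the 8930 genes. These counts are summed over the whole gene and do not separate transcripts of the floxed and the recombined allele, nor adipocytes from other cells.

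Of the 10 genes, 5 were lower in Ucp1Δ/Δ mice and 0 were higher at an adjusted p under 0.05. Over all genes tested, 21.0% were called in either direction, 7.63% as lower and 13.3% as higher. The lower genes were Pnpla2, Pnpla3, Ces1d, Ces1f and Hilpda. Each of the 10 had a log2FC below 0 with the TMM scaling of library sizes, although those of Abhd5, Lipe, Mgll and Pnpla8 came out above 0 when libraries were scaled to the pan-adipocyte markers instead. The median log2FC was -0.85, beside -0.0087 over all genes tested. In 6 of the 10 every Ucp1Δ/Δ mouse lay below every WT mouse, which was the case for 9.37% of all genes tested. Since Pnpla2 is the targeted gene, it counts among the lower genes by design. The 10 genes were also chosen with earlier results of these data known.

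**Figure D1:**
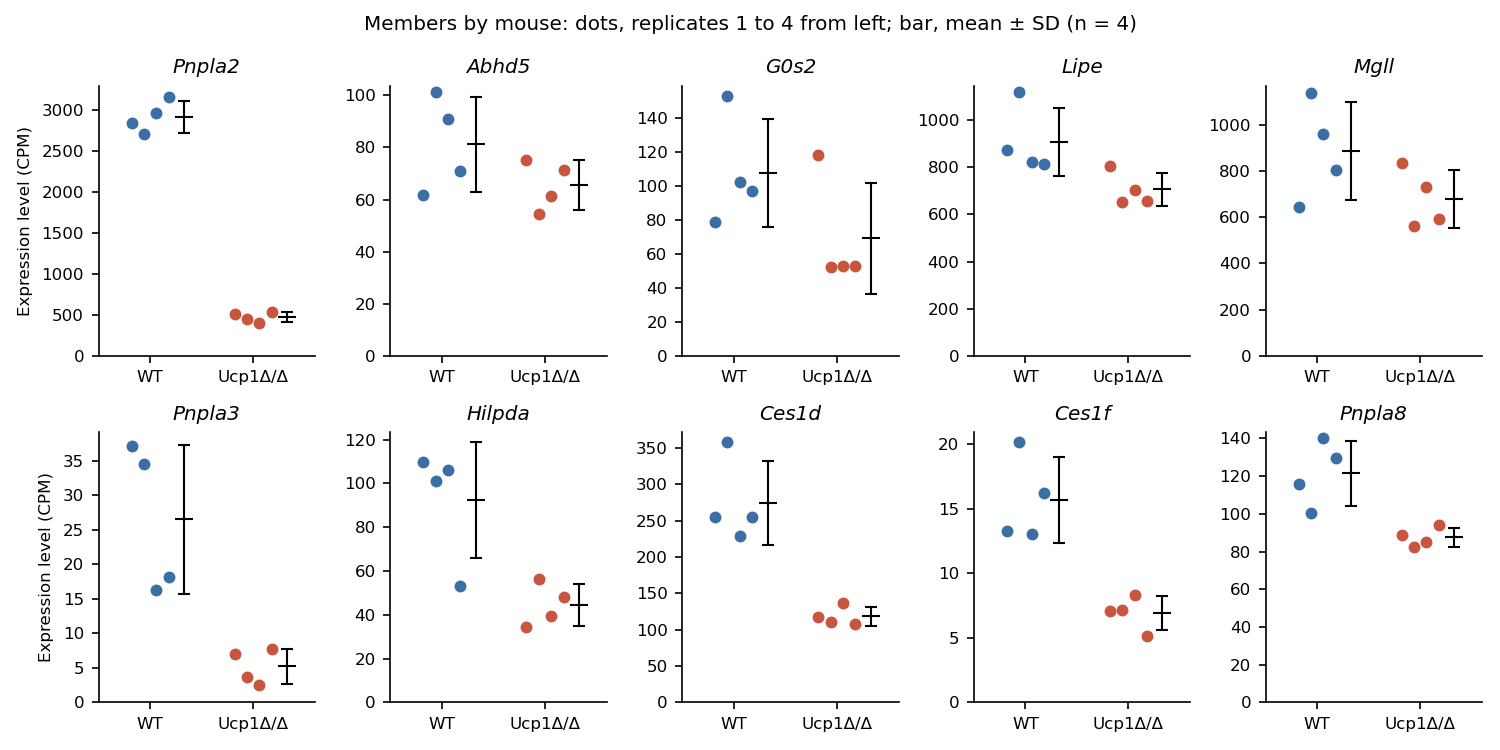
Expression level in CPM on linear axes from 0 of the 10 genes in 4 WT (blue) and 4 Ucp1Δ/Δ (red) mice, 1 dot per mouse in the order of the replicate numbers, with the mean ± SD beside the dots. Pnpla2, Pnpla3, Ces1d, Ces1f, Lipe and Pnpla8 show no overlap between genotypes, whereas 1 Ucp1Δ/Δ mouse at 118 CPM of G0s2 and 1 WT mouse at 53.2 CPM of Hilpda lie within the range of the other genotype.

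Pnpla3 (ENSMUSG00000041653, chr15:84167837-84187236, plus strand) encodes adiponutrin, the closest relative of ATGL and a lipid droplet protein known for its variant in fatty liver disease. Its level was 37.2, 34.5, 16.4 and 18.2 CPM in WT mice 1 to 4, and 7.08, 3.73, 2.51 and 7.73 CPM in Ucp1Δ/Δ mice 1 to 4. The WT mice split into a higher and a lower pair, and both pairs lay above all Ucp1Δ/Δ mice. With a log2FC of -2.32 (CI -3.09 to -1.56, adjusted p = 0.000247), its decrease was the largest after Pnpla2 among the 10, and the 14th lowest log2FC among all genes tested. The 2 CIs overlapped. These levels rest on 36 to 77 counts in WT mice and 6 to 20 counts in Ucp1Δ/Δ mice, and the predicted gene Gm49513, which shares 105 exonic bases on the same strand, shares 2.18% of the 75-base stretches of Pnpla3 transcripts.

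Both carboxylesterases were lower. Ces1d (ENSMUSG00000056973, chr8:93166068-93197838, minus strand), also known as triacylglycerol hydrolase, can cut triglyceride independently of ATGL. It stood at 255, 358, 228 and 255 CPM in WT mice 1 to 4, against 118, 111, 137 and 108 CPM in the Ucp1Δ/Δ mice. Even the lowest WT mouse lay well above the highest Ucp1Δ/Δ mouse, and the log2FC was -1.21 (CI -1.60 to -0.83, adjusted p = 0.000176). Ces1f (ENSMUSG00000031725, chr8:93256236-93279747, minus strand), a neighbouring member of the same family with lipase activity, was at 13.3, 20.2, 13.0 and 16.2 CPM and at 7.08, 7.16, 8.36 and 5.15 CPM in the same order. Its groups did not overlap either, with a log2FC of -1.16 (CI -1.70 to -0.62, adjusted p = 0.00386), on 12 to 45 counts per mouse. When the 4 mice with high muscle markers were left out, leaving 2 of each genotype, the log2FC of Ces1f was -1.07 (adjusted p = 0.0865). Scaling to pan-adipocyte markers gave a log2FC of -0.68 for Ces1f (adjusted p = 0.0917), which ends its call, and of -0.70 for Ces1d (adjusted p = 0.0189). The other 6 genes of the Ces1 cluster had 2 counts in all 8 libraries together, and neither Ces1d nor Ces1f shared a 75-base stretch with another transcript.

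The inhibitors G0s2 and Hilpda each had 1 mouse apart from the rest of its genotype. Hilpda (ENSMUSG00000043421, chr6:29272488-29275446, plus strand) was at 110, 101, 106 and 53.2 CPM in WT mice 1 to 4 and at 34.3, 56.3, 39.3 and 48.1 CPM in Ucp1Δ/Δ mice 1 to 4. The other WT mice were close together and above all Ucp1Δ/Δ mice, and WT mouse 4 fell among the latter. The log2FC was -1.06 (CI -1.55 to -0.56, adjusted p = 0.00388), while the exact permutation test over the mice gave p = 0.0571 (two-sided, where 4 against 4 can reach 0.0286). Scaled to pan-adipocyte markers, its log2FC was -0.54 and it was no longer called (adjusted p = 0.122). G0s2 (ENSMUSG00000009633, chr1:193272161-193273217, minus strand) was at 78.5, 153, 102 and 96.8 CPM in WT mice and at 118, 52.0, 53.1 and 52.8 CPM in Ucp1Δ/Δ mice. Ucp1Δ/Δ mice 2 to 4 were nearly equal and below every WT mouse, and Ucp1Δ/Δ mouse 1 was above 3 of the 4 WT mice. G0s2 was not called (log2FC -0.64, CI -1.22 to -0.05, adjusted p = 0.118), and without Ucp1Δ/Δ mouse 1 its log2FC was -1.02 (adjusted p = 0.00558). Scaling to pan-adipocyte markers gave -0.20 (adjusted p = 0.532).

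Abhd5, Lipe and Mgll, the activator of ATGL and the 2 enzymes downstream of it, did not pass the test. Abhd5 (ENSMUSG00000032540, chr9:122351608-122381524, plus strand) was at 61.7, 101, 90.8 and 70.9 CPM in WT mice and at 75.4, 54.5, 61.4 and 71.3 CPM in Ucp1Δ/Δ mice. The genotypes overlapped, and the CI of the log2FC of -0.31 ran from -0.72 to 0.09 (adjusted p = 0.282). Lipe (ENSMUSG00000003123, chr7:25379527-25398710, minus strand) was at 871, 1120, 824 and 815 CPM and at 807, 653, 705 and 659 CPM. All Ucp1Δ/Δ mice were below all WT mice, with the nearest pair at 807 and 815 CPM (log2FC -0.36, CI -0.71 to -0.01, adjusted p = 0.140). Mgll (ENSMUSG00000033174, chr6:88724412-88828360, plus strand) was at 643, 1138, 962 and 804 CPM and at 834, 561, 730 and 593 CPM, with overlapping groups (log2FC -0.38, CI -0.81 to 0.04, adjusted p = 0.196). Annotated genes on the opposite strand overlap exons of all 3, over 950, 918 and 167 bases respectively, and had 0, 27 and 35 counts in all libraries together.

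Pnpla8 (ENSMUSG00000036257, chr12:44221370-44322532, plus strand), a calcium-independent phospholipase of the ATGL family found at mitochondria and peroxisomes, was at 116, 100, 140 and 130 CPM in WT mice and at 88.8, 82.5, 85.2 and 94.0 CPM in Ucp1Δ/Δ mice. The genotypes did not overlap and the Ucp1Δ/Δ mice varied little, with a coefficient of variation of 5.68%. At a log2FC of -0.47 (CI -0.82 to -0.13) its adjusted p was 0.0517, just outside the threshold, and 6 of 20 alternative settings called it lower.

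**Figure D2:**
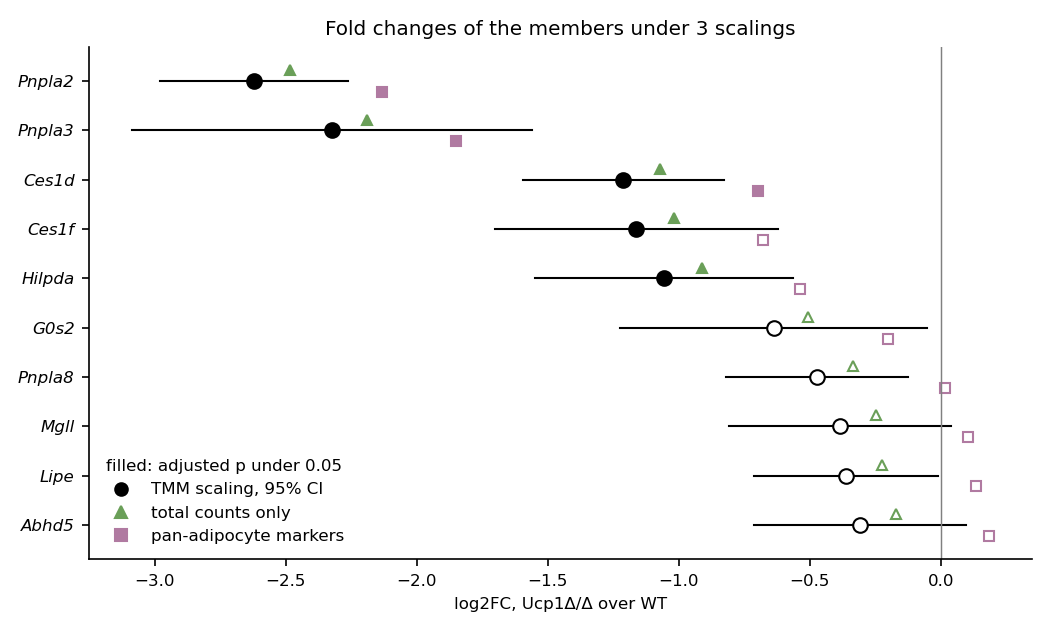
Log2FC (Ucp1Δ/Δ over WT) of each gene with TMM scaling and its 95% CI (circles), with scaling by total counts (triangles) and with scaling to the summed pan-adipocyte markers (squares), where filled symbols have an adjusted p under 0.05. Pnpla2 (-2.62, and -2.13 by adipocyte markers), Pnpla3 and Ces1d are filled under all 3, and the squares of Pnpla8, Mgll, Lipe and Abhd5 lie above 0, from 0.016 to 0.18.

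Within a genotype, several of these genes were high in the same mouse. WT mouse 2 had the highest WT level of Abhd5, G0s2, Lipe, Mgll, Ces1d and Ces1f, and Ucp1Δ/Δ mouse 1 had the highest Ucp1Δ/Δ level of Abhd5, G0s2, Lipe and Mgll. Other genes went the other way. WT mouse 2 had the lowest WT level of Pnpla2 and Pnpla8, and Ucp1Δ/Δ mouse 1 the lowest Ucp1Δ/Δ level of Hilpda. Those mice also had the highest summed brown adipocyte markers of their genotype, at 14558 and 7647 CPM, and the highest pan-adipocyte markers, at 11851 and 9880 CPM. The genes also differed in how much they varied. Among WT mice the coefficient of variation was lowest for Pnpla2, at 6.57%, and highest for Pnpla3, at 40.6%.

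Ratios between 2 genes of the same mouse do not depend on how libraries are scaled. Ratios to Pnpla2 rise wherever the other gene decreased less than the deleted one, so they follow from the deletion and are given as a description with no test. For every 100 counts of Pnpla2, WT mice had 2.81 ± 0.745 counts of Abhd5 (SD, n = 4) and Ucp1Δ/Δ mice 13.9 ± 1.37, while the level of Abhd5 itself was not called. Lipe went from 31.5 ± 6.97 to 151 ± 21.3 and Mgll from 30.7 ± 8.66 to 145 ± 32.1 per 100 Pnpla2 counts. Pnpla3 was at 0.930 ± 0.421 counts per 100 of Pnpla2 in WT mice and at 1.07 ± 0.408 in Ucp1Δ/Δ mice, with overlapping groups.

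The 5 ratios that leave Pnpla2 out all overlapped between genotypes. For 100 counts of the activator Abhd5, the inhibitor G0s2 had 127, 151, 112 and 136 counts in WT mice 1 to 4 and 157, 95.4, 86.4 and 74.1 in Ucp1Δ/Δ mice 1 to 4. The first Ucp1Δ/Δ mouse lay above all WT mice and the other 3 lay below them (two-sided exact permutation p = 0.171). Hilpda per 100 Abhd5 counts was 117 ± 43.7 in WT and 70.1 ± 24.2 in Ucp1Δ/Δ mice (SD, n = 4, exact permutation p = 0.0857). Mgll per 100 Lipe counts was 97.7 ± 17.8 and 95.7 ± 9.06 (exact permutation p = 1), and Abhd5 per 100 Lipe counts 8.96 ± 1.62 and 9.30 ± 1.09 (exact permutation p = 0.771). G0s2 per 100 Lipe counts was 11.7 ± 1.96 and 9.54 ± 3.41 (exact permutation p = 0.286). The smallest exact permutation p of these 5 was thus 0.0857, before any adjustment for their number. An adjustment over all 14 ratios computed would include those to Pnpla2, which follow from the deletion, so none is given.

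**Figure D3:**
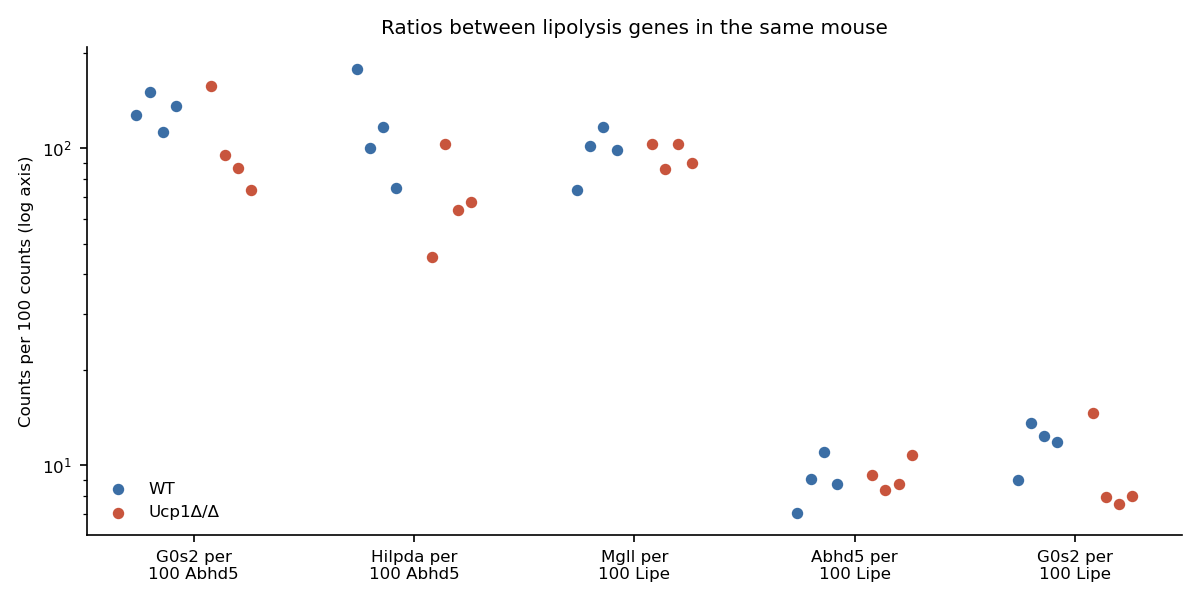
Counts of 1 gene per 100 counts of another in the same mouse, on a log axis, for the 5 ratios without Pnpla2, in 4 WT (blue) and 4 Ucp1Δ/Δ (red) mice. The genotypes overlap in each, and the first Ucp1Δ/Δ mouse, at 157 counts of G0s2 per 100 of Abhd5, lies above the other 3, at 74.1 to 95.4.

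Other genes of the pathway were read from 5 lists. The counts of each list stand beside 7.63% lower and 13.3% higher over all genes tested, and no list was tested as a set. Of 27 other intracellular lipases and esterases, 10 were tested, and 10 of those not tested had 0 counts in every mouse. In this list 2 were lower and 2 higher, with a median log2FC of -0.036. Abhd6, which cuts monoglyceride at the membrane, went from 46.9 ± 1.79 to 23.3 ± 8.62 CPM (SD, n = 4, log2FC -1.02, edgeR adjusted p = 0.00532), and Ddhd2, a lipase with triglyceride as a known substrate, from between 162 and 243 CPM in WT to between 91.8 and 121 CPM in Ucp1Δ/Δ mice (log2FC -0.92, edgeR adjusted p = 0.00158). The 2 higher genes hydrolyse cholesteryl esters. Nceh1 was at 4.59, 0, 1.67 and 1.52 CPM in WT mice and at 13.4, 39.2, 17.1 and 22.3 CPM in Ucp1Δ/Δ mice (log2FC 3.60, SE 0.52, edgeR adjusted p = 0.000127), with WT levels close to the floor of 3 counts. Lipa, the acid lipase of the lysosome, was at 54.0, 127, 83.8 and 62.3 CPM and at 161, 147, 136 and 206 CPM (log2FC 0.99, edgeR adjusted p = 0.00829). Every Ucp1Δ/Δ mouse exceeded every WT mouse in both. Both genes are also expressed by macrophages, whose 10 markers summed to at most 156 CPM in WT and at least 977 CPM in Ucp1Δ/Δ mice, and the part of those cells in the result was not tested.

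Of 27 genes of lipolytic signalling, from receptors to protein kinase A and the phosphodiesterases that end its signal, 22 were tested, with 6 lower, 4 higher and a median log2FC of -0.33. The lower genes included Hcar2, the receptor through which β-hydroxybutyrate and niacin restrain lipolysis (10.9 ± 1.54 to 2.41 ± 1.02 CPM, log2FC -2.11, edgeR adjusted p = 0.000287), and Pde3b, the phosphodiesterase that carries the antilipolytic signal of insulin (456 ± 75.1 to 229 ± 27.3 CPM, log2FC -0.99, edgeR adjusted p = 0.000656). Hcar2 levels in Ucp1Δ/Δ mice 1 to 4, at 2.12, 3.73, 2.51 and 1.29 CPM, were close to the floor of 3 counts. Prkar2b, the main regulatory subunit of protein kinase A in fat, had a log2FC of -1.07 (edgeR adjusted p = 0.000933). Among the higher genes were both natriuretic peptide receptors listed. Npr3, which clears the peptide, was between 13.9 and 29.9 CPM in WT mice and at 140, 209, 244 and 169 CPM in Ucp1Δ/Δ mice 1 to 4 (log2FC 3.17, edgeR adjusted p = 6.13e-07). Npr1, the signalling receptor, went from 13.2 ± 2.87 to 39.7 ± 10.0 CPM (log2FC 1.59, edgeR adjusted p = 0.000196), and Pde4b had a log2FC of 1.52 (edgeR adjusted p = 0.00115). The β3-adrenergic receptor Adrb3, the main noradrenaline receptor of adipocytes, was not called (log2FC -0.70, edgeR adjusted p = 0.0661).

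The 13 lipid droplet coat genes, of which 10 were tested, split into 4 lower and 1 higher (median log2FC -0.16). Cidea, the droplet fusion protein of brown fat, went from 5948 ± 1634 to 2671 ± 623 CPM (log2FC -1.16, edgeR adjusted p = 0.00211), and Plin1, the coat protein that holds ABHD5 away from ATGL at rest, from 623 ± 205 to 332 ± 78.1 CPM (log2FC -0.91, edgeR adjusted p = 0.0113). Cidea and Plin1 also stand in the adipocyte marker lists. Bscl2, which encodes the droplet biogenesis factor seipin, had a log2FC of -0.80 (edgeR adjusted p = 0.00774). Plin3 had a log2FC of 0.59 (edgeR adjusted p = 0.0399) and was called in 12 of 20 alternative settings. Plin5, which couples droplets to mitochondria and binds ATGL, was not called (log2FC -0.11, edgeR adjusted p = 0.798).

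Of 15 other genes known to set ATGL level or activity, 14 were tested, and 2 were lower and 2 higher (median log2FC -0.11). Ppara, the nuclear receptor for fatty acids freed by ATGL, went from 203 ± 48.6 to 94.9 ± 34.2 CPM (log2FC -1.10, edgeR adjusted p = 0.00476), and Aup1 had a log2FC of -0.62 (edgeR adjusted p = 0.0390), called in 9 of 20 alternatives. Serpinf1, which encodes PEDF, a secreted ligand of ATGL, went from 7.94 ± 2.15 to 25.4 ± 7.27 CPM (log2FC 1.69, edgeR adjusted p = 0.000284). Egr1, an immediate-early factor known to repress Pnpla2, was higher (log2FC 2.82, edgeR adjusted p = 0.00111) but spread widely over the Ucp1Δ/Δ mice, at 43.9, 71.6, 159 and 15.9 CPM. The insulin-controlled factors Foxo1 (log2FC -0.10) and Irf4 (log2FC -0.45) and the adipocyte regulator Pparg (log2FC -0.33) were not called.

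Of 12 genes that receive the products of lipolysis, 10 were tested, with 4 lower and 1 higher (median log2FC -0.43), where 7.63% of all genes tested were lower and 13.3% higher. Scaling by total counts gave 4 lower and 2 higher, and scaling to pan-adipocyte markers 2 lower and 2 higher, with a median log2FC of 0.070. Dgat2, which re-esterifies fatty acids to triglyceride, was at 1362, 1592, 1429 and 1094 CPM in WT mice and at 701, 447, 677 and 477 CPM in Ucp1Δ/Δ mice (log2FC -1.25, edgeR adjusted p = 0.000255). The acyl-CoA synthetases Acsl5 (log2FC -1.47, edgeR adjusted p = 0.000345) and Acsl1 (log2FC -0.85, edgeR adjusted p = 0.00601) were lower, and the fatty acid carrier Fabp3 was higher (410 ± 99.4 to 838 ± 363 CPM, log2FC 1.03, edgeR adjusted p = 0.00968). Aqp7, the glycerol channel of adipocytes, was not called (log2FC 0.53, edgeR adjusted p = 0.0639). Over the 5 lists in the order described, scaling to pan-adipocyte markers left 0, 1, 1, 0 and 2 genes lower and 2, 6, 2, 2 and 2 higher. Under that scaling 114 of the 8930 genes tested were lower (1.28%) and 2620 were higher.

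**Figure D4:**
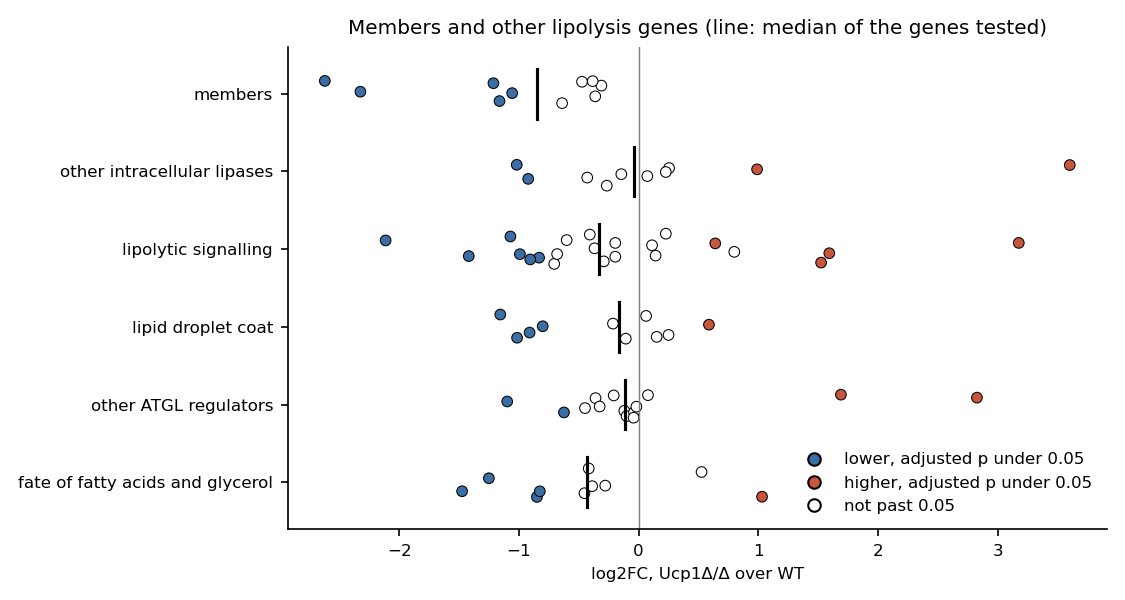
Log2FC (Ucp1Δ/Δ over WT, TMM scaling) of the 10 genes and of the tested genes of the 5 lists, 1 dot per gene, blue for lower and red for higher at an adjusted p under 0.05, with a line at each median. The 10 genes have a median of -0.85 and no red dot. Each list holds blue and red dots, with medians from -0.43 to -0.036. All 5 list medians lie above 0 when libraries are scaled to pan-adipocyte markers, and 2 of them also with total counts. The median over all genes tested is then 0.48 and 0.13 respectively.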

How the data were processed

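The mRNA of BAT from 4 WT and 4 Ucp1Δ/Δ mice was sequenced (single end, 75 cycles). Per the study's methods, the authors used bbduk for trimming, STAR for alignment to mm10 and HTseq-counts for counting, and deposited whole-number counts per Ensembl gene. The submitters' processing notes list Trimmomatic, HISAT2 and DESeq2 in place of these. The authors also deposited log2 values, each the log2 of the count over 1 factor per mouse, plus 1. Strand setting and annotation release are not given in the sources used here.

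Counts were filtered with filterByExpr, scaled by TMM and tested on genotype alone with edgeR's quasi-likelihood test (edgeR 4.0.16, R 4.3.3, Benjamini-Hochberg adjustment over 8930 genes, threshold 0.05). Log2 CPM used a prior count of 2. Single values were compared by two-sided exact permutation of mean log2 CPM, or of log2 ratios. DESeq2 1.42.0 and limma 3.58.1 gave alternatives. Symbols and positions came from GENCODE (GRCm38), and 30934 of 31053 identifiers had a symbol. CPM are not per length, so levels were not compared between genes.

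All 10 genes were named, and from each pathway list the 3 lower and 3 higher genes with the smallest adjusted p. Adrb3, Plin5, Foxo1, Irf4, Pparg and Aqp7, and the markers Lep, Dio2, Ucp1, Elovl3, Adipoq and Cidec, were added after their values were seen. The genes and lists were chosen with earlier results of these data known. Between mice of 1 genotype the chi-square per degree of freedom was 5.36 to 25.8, and no library was treated as a duplicate. The edgeR p-values set the genotype difference against a variation between these mice whose estimate draws on all genes tested. The exact permutation p-values use only the values of the 1 gene or ratio compared.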

Additional observations from a re-analysis of the deposited data

Results flagged for a closer look

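G0s2 in Ucp1Δ/Δ mouse 1, at 6.89 log2 CPM against 5.72 to 5.75 in the other Ucp1Δ/Δ mice, lay apart from them by 0.974 of the group's range, above Dixon's 95% critical value for 4 mice. Hilpda in WT mouse 4, at 5.75 log2 CPM against 6.67 to 6.79 in the other WT mice, lay apart by 0.890 of the range. These were 2 of 20 groups examined, where chance gives about 1. Without WT mouse 4 the log2FC of Hilpda was -1.26 (edgeR adjusted p = 0.000222). The libraries of these mice held 2837939 and 2110124 counts, within the range of the other mice.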

How the results depend on the processing

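The number of the 10 genes called lower was 5 to 6 with each mouse left out in turn and 3 to 7 under the other alternatives, and 0 were higher under all 20. Pnpla2 was lower in all 20, with a log2FC from -2.68 to -2.54 with single mice left out and from -2.66 to -2.13 otherwise. Scaling to the pan-adipocyte markers, which moved the median log2FC of all genes to 0.48, left 3 genes lower (Pnpla2 -2.13, Pnpla3 -1.85, Ces1d -0.70) and turned Abhd5 (0.18), Lipe (0.13), Mgll (0.10) and Pnpla8 (0.016) above 0, with none of these 4 called. Ces1f (-0.68, adjusted p = 0.0917) and Hilpda (-0.54, adjusted p = 0.122) then missed the threshold of the edgeR test. Under this scaling, 4 instead of 18 pathway genes were lower (Hcar2, Cidea, Dgat2 and Acsl5) and 14 instead of 10 were higher. Over all 8930 genes tested, it called 114 lower (1.28%) and 2620 higher. That scaling assumes unchanged adipocyte marker RNA, Fabp4 made up 62.1% of the markers' sum, and the marker list shares Plin1, Cidec, Fabp4 and Pparg with the pathway lists. Pathway genes lower ranged from 15 to 20, and higher from 8 to 11 around 10, with single mice left out.

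Pnpla8 was called with DESeq2 size factors (0.0435), without mitochondrially encoded genes (0.0494), with the DESeq2 Wald test (0.0134), limma voom (0.0164) and limma trend (0.0378), and without WT mouse 2 (0.0134), as adjusted p. Lipe was called only by the DESeq2 Wald test (adjusted p = 0.0480), and G0s2 only with a filter of at least 1 count in any mouse (adjusted p = 0.0144) and without Ucp1Δ/Δ mouse 1. At 10 counts in every mouse, Pnpla3 was not tested. Without the 4 mice high in muscle markers, Ces1f and, among named pathway genes, Abhd6, Lipa, Plin3, Ppara, Aup1 and Fabp3 missed the threshold.

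Scaling by total counts gave 404 lower and 1478 higher genes of all tested (78.5% of calls higher, against 63.6%), with a median log2FC of 0.13. All calls numbered 1872, against 1195 where each mouse needed at least 10 counts, 2734 with pan-adipocyte scaling and 1025 without the 4 mice high in muscle markers, 2 alternatives (this and a muscle covariate) chosen after seeing the data.

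Same-numbered mice are different animals, and the correlations of their deviations, -0.087, -0.20, 0.30 and 0.24, gave no pairing. With a replicate block, Pnpla2 had a log2FC of -2.63, 5 of the 10 genes were lower, and 1719 genes were called in all.

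With 2017697 to 3115956 counts per mouse, Pnpla3 and Ces1f rest on few counts, and changes the size of those of Abhd5 or Lipe were near the spread between mice.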
